A study of Mus musculus with 24 samples.

Results

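The comparison described here is low-dose ionizing radiation (LDIR, 10 cGy) against sham in BALB/c mammary gland 2 weeks after exposure. Its members were chosen by strain, exposure and time as the sample labels give them: 3 LDIR arrays (A, B and C) and 3 sham arrays (A, B and C), which are 6 of the 24 arrays of the series. All animals were BALB/c females from a commercial breeder, were 8 to 9 weeks old at exposure and received either one whole-body X-ray dose of 10 cGy or a sham treatment. Mammary tissue was taken 2 weeks later, and total RNA from frozen whole tissue was labelled with Cy3 and hybridised to an Agilent mouse array with 39430 coding and 16251 long noncoding RNA (lncRNA) probes. The series also holds BALB/c glands at 4 and 8 weeks and SPRET/EiJ glands at 4 weeks, and it was made to find lncRNA and coding RNA changes after LDIR in strains of different susceptibility. The study calls the 3 arrays of a group biological replicates, and no label gives a cycle stage or says whether an array held 1 animal or a pool.

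Ionizing radiation breaks DNA, and the damage is sensed by the kinases ATM, ATR and DNA-PK, which act through p53 on cell cycle arrest, repair and apoptosis. BALB/c mice carry variants of Prkdc, the gene of the DNA-PK catalytic subunit, and are known for weaker end joining and for radiation-induced mammary tumours. The virgin mammary gland is mostly fat, with a branching epithelium of luminal and basal cells whose gene expression follows ovarian hormones across the estrous cycle, together with stroma, vessels and immune cells. lncRNAs are transcripts without a known protein product, often of low level, and this array reads many of them from both strands of an interval.

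The lncRNA results below turn on 5 named transcripts, and the array's 60-base probe sequences for them are given first because each transcript is known here only through these probes. The first pair of transcripts lies on opposite strands of one interval of chromosome 8, and every probe of either was called higher after LDIR. The transcripts are named by the array design by their interval and by strand (F, forward; R, reverse), in the mm9 build, and each sequence is written 5′ to 3′ as the array files give it. The 5 probes of chr8:26343277-26352902_F were:
chr8:26348333-26348392, forward strand: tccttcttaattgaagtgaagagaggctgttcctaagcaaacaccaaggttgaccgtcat
chr8:26348393-26348452, forward strand: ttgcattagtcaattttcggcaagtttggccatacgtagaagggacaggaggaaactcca
chr8:26348475-26348534, forward strand: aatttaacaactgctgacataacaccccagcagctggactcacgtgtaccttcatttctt
chr8:26348553-26348612, forward strand: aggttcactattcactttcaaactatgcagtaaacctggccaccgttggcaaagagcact
chr8:26348614-26348673, forward strand: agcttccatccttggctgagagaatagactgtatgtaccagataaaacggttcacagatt
The 3 probes of chr8:26347473-26348052_R, an interval inside the first one, were:
chr8:26347652-26347711, reverse strand: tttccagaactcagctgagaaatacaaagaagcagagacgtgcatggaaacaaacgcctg
chr8:26347712-26347771, reverse strand: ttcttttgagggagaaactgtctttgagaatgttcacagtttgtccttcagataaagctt
chr8:26347772-26347831, reverse strand: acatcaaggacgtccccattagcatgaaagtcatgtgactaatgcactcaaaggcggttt
The 2 probes of chr8:47813487-47824869_R, which had the highest fold changes among the named lncRNA probes, abut each other:
chr8:47821959-47822018, reverse strand: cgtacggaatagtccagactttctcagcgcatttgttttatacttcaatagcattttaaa
chr8:47822019-47822078, reverse strand: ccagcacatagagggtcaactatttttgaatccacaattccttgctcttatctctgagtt
The called probes of chr5:121768672-121772658_F, which include the smallest p-value among the named probes, were:
chr5:121771421-121771480, forward strand: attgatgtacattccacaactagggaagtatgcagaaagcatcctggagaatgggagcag
chr5:121772221-121772280, forward strand: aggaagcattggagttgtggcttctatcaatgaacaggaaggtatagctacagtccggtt
The 3 probes of chr2:104597982-104600748_R, the transcript with every probe called lower after LDIR, were:
chr2:104598109-104598168, reverse strand: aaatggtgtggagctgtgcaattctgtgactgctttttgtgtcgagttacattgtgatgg
chr2:104598199-104598258, reverse strand: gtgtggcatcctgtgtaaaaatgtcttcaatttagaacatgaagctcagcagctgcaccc
chr2:104598286-104598345, reverse strand: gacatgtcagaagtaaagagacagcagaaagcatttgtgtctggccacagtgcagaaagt

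The 6 arrays lay on 1 slide, with the LDIR arrays and sham A in its upper row and sham B and C in the lower row. The 75th percentile of intensity ran from 334 to 489, 65.7 to 70.6% of probes were well above background, and no spot was saturated. Correlations between arrays ran from 0.983 to 0.991, and the highest was between an LDIR and a sham array (B and B). Levels are given as log2 intensity minus the array's own 75th percentile, so 0 is that percentile, and a difference of 1 is a 2-fold change. A probe counted as measured when it was well above background on at least 4 of the 6 arrays, which held for 37250 of 55681 probes, and 13781 probes were well above background on none.

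Cell type markers did not separate the groups. The summed level of the white adipocyte markers, in multiples of the 75th percentile, was 3055, 3822 and 4302 in the LDIR arrays and 3181, 3456 and 4210.5 in the sham arrays, the highest of any marker list. Luminal epithelial markers summed to 393, 134 and 186 after LDIR and to 310, 159 and 203 after sham, so both A arrays held the most luminal RNA. Skeletal muscle markers were uneven between single glands: their sum was 438 in LDIR A and 878 in sham C against 12.2 to 49.3 in the other 4 arrays, and 14 of the 15 muscle markers were higher on average after LDIR with none called. Erythrocyte markers ran from 81.9 to 444 in the LDIR arrays and from 121 to 452 in the sham arrays. In whole tissue, fewer cells of a type and less RNA per cell cannot be told apart, and the part of these markers in the differences below was not tested unless a value is given.

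**Figure D1:**
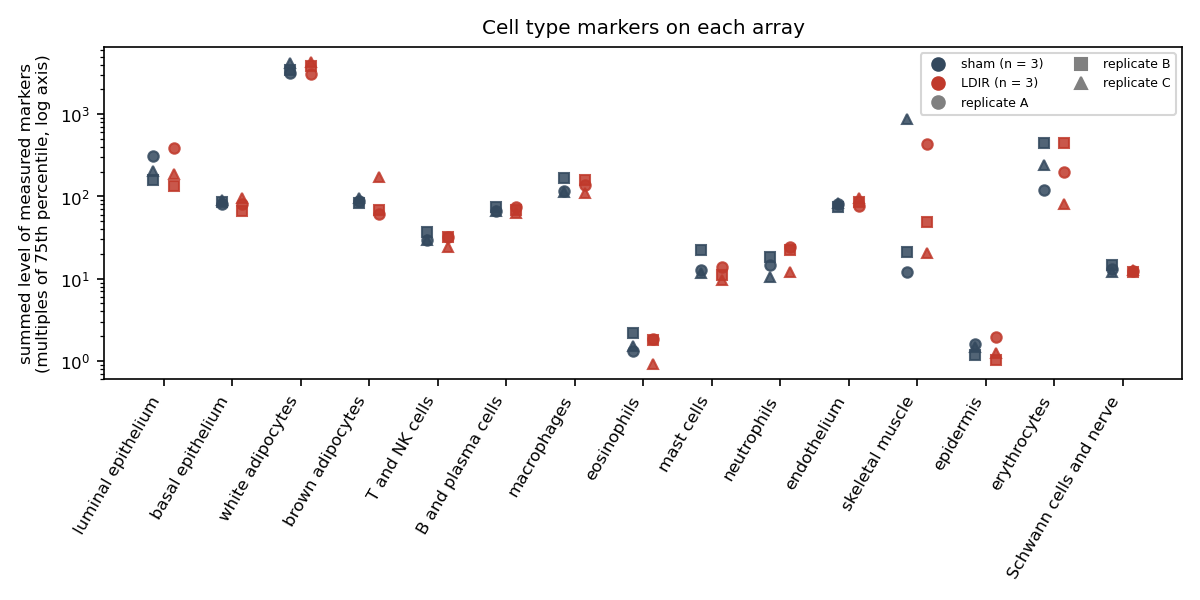
Summed level of the measured markers of each cell type on each array, in multiples of the array's 75th percentile (log axis), for sham and LDIR, with 1 symbol per replicate letter. The skeletal muscle sums reach 438 in LDIR A and 878 in sham C, while the white adipocyte sums lie between 3055 and 4302 on all 6 arrays.

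The first question was how many RNAs differed between irradiated and sham glands. By the study's threshold (unadjusted p under 0.05 and a change of over 1.5-fold, here with limma's moderated test), 1036 coding probes (2.63% of those tested) and 707 lncRNA probes (4.35%) were called, 731 and 524 of them higher after LDIR. Among measured probes the calls came to 438 coding probes (1.54%), 323 of them higher, and 235 lncRNA probes (2.68%), 207 of them higher. No probe passed a Benjamini-Hochberg adjusted p of 0.05 in limma, where the smallest was 0.488, and 2787 probes (5.01%) had an unadjusted p under 0.05. The methods' t-test also left no probe after adjustment, with 3351 probes at an unadjusted p under 0.05. The word called therefore refers below to the unadjusted threshold.

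Calls were concentrated among dim probes. Over 5 equal groups of probes ordered from the dimmest to the brightest, 2.68, 8.80, 2.49, 1.11 and 0.57% were called, and the 18431 probes above background on 3 or fewer arrays gave 1070 of the calls. The median change of measured lncRNA probes was 0.10 on the log2 scale, with 66.0% higher after LDIR, against a median of 0.01 for measured coding probes. That lncRNA median was smaller with normexp correction, at 0.03 (60.3% higher), and with quantile normalization, at 0.05 (57.9% higher). Under quantile normalization 59.9% of coding calls and 60.8% of lncRNA calls were higher after LDIR, against 70.6 and 74.1% with 75th percentile scaling. The share of lncRNA probes above background was 56.4 to 59.6% on the LDIR arrays and 51.8 to 56.8% on the sham arrays, a value that lies beside the lncRNA excess and whose part in it was not tested.

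Counted by gene, with the probe of highest mean level standing for each, 734 of 30398 coding genes were called (2.41%), 502 of them higher after LDIR (1.65%) and 232 lower (0.763%). Of the genes also measured and with non-overlapping groups, 174 were higher and 72 lower, of which 96 and 18 had only clone or accession names. Over all measured probes, called or not, 13.2% had non-overlapping groups, and 594 of the 673 measured calls did. Non-overlap alone therefore does not set a called RNA apart, here or below. The named coding RNAs below are, among the named genes that passed these filters, the 8 with the smallest p in each direction. Their adjusted p-values in limma ran from 0.763 to 0.894. Their separation and small spread within groups follow from this selection and are no further evidence.

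Among the RNAs higher after LDIR, the bright ones were Marchf1 and Slc17a5. Marchf1 encodes a membrane ubiquitin ligase that removes MHC class II from the cell surface. Its level was 4.06, 4.04 and 4.22 in the LDIR arrays and 3.27, 3.44 and 3.55 in the sham arrays, a change of 0.68 ± 0.15 (SE, limma, n = 3 and 3). All LDIR arrays were above all sham arrays, but another measured Marchf1 probe gave 0.06 ± 0.44. Slc17a5, the lysosomal sialic acid exporter sialin, was at 4.75, 4.76 and 4.98 after LDIR and 4.05, 4.19 and 4.32 after sham, a change of 0.65 ± 0.15. Its groups did not overlap either, and its other probe differed by 0.47 ± 0.17, short of the 1.5-fold limit, as did the first without LDIR C or without sham A (0.57 and 0.58).

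The other RNAs higher after LDIR were dimmer. Khdrbs2, an RNA-binding splicing factor, was at -3.88, -3.87 and -4.21 after LDIR and -4.98, -4.63 and -4.90 after sham, a change of 0.84 ± 0.18. Krtap4-1, a keratin-associated protein of hair, was at -0.48, -0.68 and -0.99 after LDIR and -1.59, -1.53 and -1.40 after sham, a change of 0.79 ± 0.18. Both separated the groups fully, Khdrbs2 with a wider gap. Olfr671, an olfactory receptor gene, was at -3.19, -3.39 and -3.40 against -4.24, -4.01 and -3.94 in sham, a change of 0.74 ± 0.15. The zinc finger genes Zfp69 and Zfp12 changed by 0.62 each, and Usp17lc, of a deubiquitinase family, by 0.61. Olfr671, the zinc finger genes and Usp17lc belong to large families of similar sequence, so their probes may also read paralogs. The calls of the zinc finger genes and Usp17lc were each lost when 1 of 2 or 3 particular arrays was left out, at 0.54 to 0.58. With normexp background correction, the changes of Khdrbs2, Olfr671, Zfp69, Zfp12 and Usp17lc came to 0.19, 0.20, 0.15, 0.19 and 0.18 and were no longer called, while Marchf1, Krtap4-1 and Slc17a5 stayed called.

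The RNAs lower after LDIR included developmental transcription factors and secreted proteins. Lhx8, a LIM homeobox factor of oocytes and forebrain neurons, was at -3.31, -2.88 and -3.30 after LDIR and -2.16, -2.14 and -1.68 after sham, a change of -1.17 ± 0.21 that had the smallest p of the named coding RNAs. Hoxa10, a homeobox factor of the female reproductive tract, was at -1.34, -1.09 and -1.00 after LDIR and -0.45, -0.16 and -0.41 after sham, a change of -0.80 ± 0.17. For both, every LDIR array was below every sham array. Ptx3, a secreted pentraxin of innate immunity, was at -3.26, -3.59 and -3.90 after LDIR and -2.17, -2.76 and -2.62 after sham, a change of -1.07 ± 0.24. Mgp, the matrix Gla protein that inhibits calcification, was at 1.94, 1.73 and 1.75 after LDIR and 2.35, 2.54 and 2.43 after sham, a change of -0.63 ± 0.14. Mgp was the brightest of the named RNAs lower after LDIR, and its groups did not overlap.

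Ubtd2, a ubiquitin-domain protein, was at 0.39, 0.26 and 0.40 after LDIR and 1.02, 1.07 and 0.92 after sham, a change of -0.66 ± 0.14. The spread within either Ubtd2 group was far smaller than the gap between them, which selection by smallest p favours. Plk5, of the polo-like kinase family, changed by -0.89 ± 0.17, Spink2, a serine protease inhibitor, by -0.82 ± 0.20, and P2ry10, a lymphocyte G protein-coupled receptor, by -0.65 ± 0.16. These 3 were dim, and with normexp correction Plk5, Ptx3, Spink2 and P2ry10 came to -0.39, -0.47, -0.24 and -0.34 and were not called, while Lhx8 (-0.62), Ubtd2, Hoxa10 and Mgp stayed called. In the fit over all 18 BALB/c arrays, which pools the spread of the later glands, Zfp69, Plk5, Ubtd2, Hoxa10, Mgp and P2ry10 were not called, and without sham B Mgp and P2ry10 came to -0.58 and -0.53, also uncalled.

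**Figure D2:**
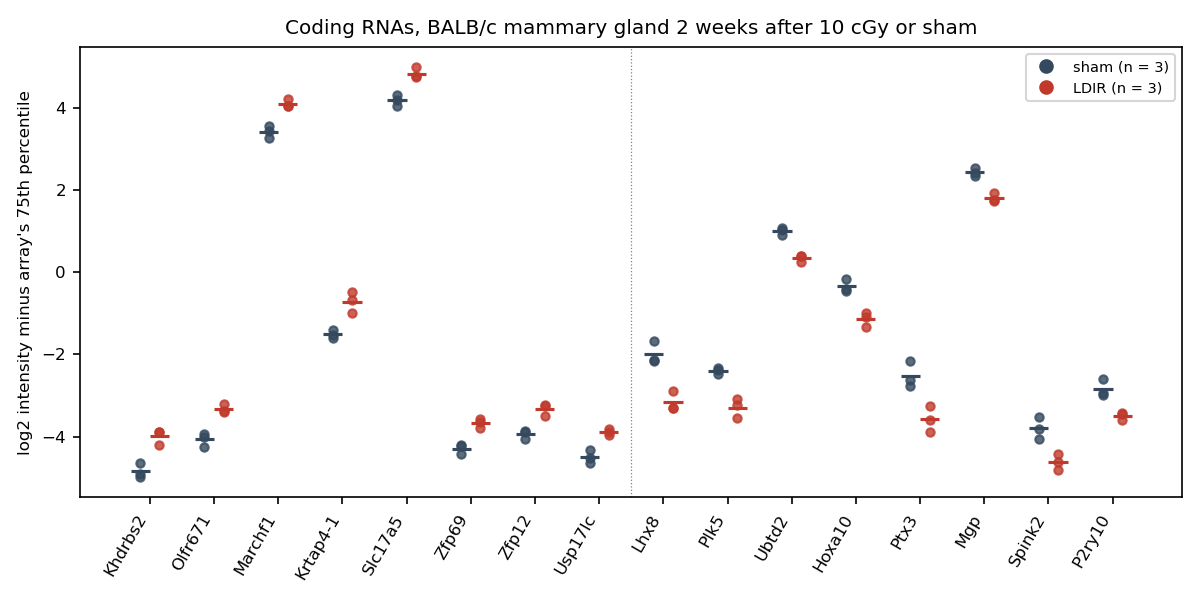
Level of 16 coding RNAs on each of the 3 sham and 3 LDIR arrays, as log2 intensity minus the array's 75th percentile; points are arrays and bars are group means, with RNAs higher after LDIR left of the dotted line and lower ones right of it. No RNA shows overlap between its groups, which the selection required, and Marchf1, Slc17a5 and Mgp are the brightest.

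Genes with several probes gave repeat readings of 1 RNA on the same arrays, which are not an independent check of a call. Of 4867 coding genes with at least 2 measured probes, 170 had a call, 103 of these had all probes differing in the direction of the call, 8 had 2 calls in the same direction, and none had calls in both directions. How often the probes of uncalled genes share a direction was not worked out. The 8 genes described next were picked for their 2 calls, so agreement between those probes is no further evidence. S100g, the vitamin D- and estrogen-regulated calcium-binding protein calbindin-D9k, had the largest changes of these. One S100g probe was at -4.03, -5.09 and -7.76 after LDIR and -1.96, -2.42 and -3.00 after sham, a change of -3.17 ± 0.93 (limma adjusted p = 0.894), and the other changed by -2.51 ± 0.77 (limma adjusted p = 0.894). Every LDIR array was below every sham array on both probes, but the LDIR arrays spread widely, and S100g was well above background on 2 and 1 of them. Without LDIR C the first S100g change was -2.10, and with normexp correction the changes were -0.88 and -0.63, all called, while the methods' t-test called neither probe and the second lost its call without sham A.

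F3, tissue factor, the initiator of coagulation, was higher on both probes, at 4.03, 3.62 and 2.87 after LDIR against 2.59, 2.64 and 2.78 after sham on the brighter one, a change of 0.83 ± 0.30 (limma adjusted p = 0.894). The other F3 probe changed by 1.15 ± 0.36, and on both the lowest LDIR array lay close to the sham arrays. The call of the brighter F3 probe was lost without any one array other than LDIR C (0.57 without LDIR A), and that of the other without LDIR B or sham A. Arl4d, a small ARF-family GTPase, was lower on both probes, by -0.68 ± 0.17 and -0.81 ± 0.22. Haus7, a subunit of the augmin complex of the spindle, was higher by 0.78 ± 0.26 and 0.86 ± 0.26. Pign, an enzyme of GPI anchor synthesis, was higher by 0.71 ± 0.24 and 0.62 ± 0.16. All 3 had non-overlapping groups on both probes, but without sham A the changes came to 0.53 on 1 Haus7 probe, 0.50 and 0.55 on the Pign probes and -0.55 on 1 Arl4d probe, none of them called. Btnl9, a butyrophilin-like protein, was called on 2 of 3 probes (0.67 and 0.59, the third at 0.24), and Chl1, a neural adhesion protein, was lower by -0.61 and -0.98. Without LDIR C neither Btnl9 call held (0.48 and 0.41), and without LDIR B or sham B the first Chl1 call did not. With normexp correction 1 Pign probe (0.22), 1 Btnl9 probe (0.53) and both Chl1 probes (-0.33 and -0.24) were not called. Gapdh, the glycolytic enzyme often used for scaling, was called higher on 2 of its 8 probes (0.76 and 0.85), and its other probes lay between 0.22 and 0.46. On the called Gapdh probes sham C lay just below the LDIR arrays, and the calls were lost without any one array other than sham C.

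For the lncRNAs, the array gave 4622 transcripts, and 2338 of them had at least 2 measured probes. Of these, 164 had a call on a measured probe, and 99 of the 164 had all measured probes differing in the same direction. The like share among uncalled transcripts was not worked out, and 66.0% of all measured lncRNA probes were higher after LDIR. Counting measured probes only, 20 transcripts had 2 or more calls in the same direction, and 1 had calls in both directions. Probes of 1 transcript share their RNA and often abut, so they are repeat readings of 1 transcript and not replicates.

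The pair of transcripts on chromosome 8 whose probes are printed above gave the most called probes. On the forward strand the probe at 26348333 was at -3.03, -3.06 and -2.92 after LDIR and -4.01, -3.50 and -4.18 after sham, a change of 0.90 ± 0.21 (limma adjusted p = 0.849). The other 4 forward probes changed by 0.90, 0.59, 0.65 and 0.67 and were called. On each of the 5 forward probes every LDIR array was above every sham array, and sham B was the highest sham array. On the reverse strand, the probe at 26347712 was at -1.41, -1.44 and -1.56 after LDIR and -3.43, -2.43 and -2.01 after sham, a change of 1.15 ± 0.36 (limma adjusted p = 0.894). The reverse probes on either side changed by 1.00 ± 0.33 and 1.13 ± 0.41, and on all 3 the groups did not overlap and sham A was the lowest array. Without sham A the 3 reverse changes came to 0.63, 0.75 and 0.64 in genome order, still called. With normexp correction the 3 reverse probes came to 0.69 to 0.78 and stayed called, while the 5 forward probes came to 0.30 to 0.53 and did not. By contrast, none of the reverse probes was called in the fit over all 18 BALB/c arrays or by the methods' t-test. Single arrays left out also ended the call of the reverse probe at 26347772 (any LDIR array), of the one at 26347652 (LDIR B or C) and of the forward probe at 26348475 (LDIR A, LDIR B, sham A or sham C). The forward probes at 26348553 and 26348614 lost their calls without sham A too, the latter at 0.51. Over all 16 alternatives those calls were lost in 3 and 4. When LDIR A and sham C, the arrays high in muscle markers, were left out after the data were seen, 4 of the 5 forward probes and 1 reverse probe lost their calls, at 0.53 to 0.69 and 1.36. A longer reverse transcript of the same interval, chr8:26343277-26352902_R, had 1 of 5 probes called, at 1.15 ± 0.45, and the other 4 lay between 0.31 and 0.47.

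The reverse transcript chr8:47813487-47824869_R was at -1.46, -2.16 and -1.50 after LDIR and -3.50, -3.50 and -3.13 after sham on its first probe, a change of 1.67 ± 0.24 (limma adjusted p = 0.624). Its abutting probe changed by 1.49 ± 0.25 (limma adjusted p = 0.756). On both probes every LDIR array was above every sham array, as the selection of named probes required. On the forward strand of the same interval, the probe at 47822330 was well above background on all 3 LDIR arrays and on no sham array, which bounds the change at 1.78-fold or more (at least 1.78-fold higher), and 1 forward probe measured on all arrays differed by -0.22 ± 0.29. Such bounds set the brighter group against the lowest signal called above background, or against the dim group's own signal where that was larger. They hold for the main scaling alone, and other processing gave changes under the bound for some probes named below.

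Chr5:121768672-121772658_F was dim, at -4.10, -4.16 and -4.00 after LDIR and -5.42, -5.70 and -5.29 after sham at 121771421, a change of 1.39 ± 0.16 (limma adjusted p = 0.488). Its probe at 121772221 changed by 1.33 ± 0.29 and the third, uncalled, by 0.56 ± 0.21. All 3 readings of this transcript were thus higher after LDIR, and the neighbouring interval chr5:121778090-121779622_F had probes at 0.86, 0.65 and 0.50, the first 2 called, calls lost without any one of LDIR A, sham A or sham B and with normexp correction (0.53 and 0.52). With normexp correction the printed chr5 probes came to 0.29 and 0.43 and were not called, while both probes of chr8:47813487-47824869_R came to 0.88 and 0.77 and stayed called. In the fit over all 18 BALB/c arrays the first of these chr8:47813487-47824869_R probes was not called.

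Chr2:104597982-104600748_R was the transcript with every probe lower. Its brightest probe, at 104598109, changed by -0.74 ± 0.19 (limma adjusted p = 0.894), and the others by -0.72 ± 0.22 and -0.65 ± 0.20. It was the brightest of the printed transcripts, with group means of 1.81 after LDIR and 2.55 after sham on that probe. All 3 calls were lost without LDIR A and sham C together, at -0.60 to -0.64, and 2 of them without LDIR B. The call of the probe at 104598286 was also lost without sham A (-0.53), and in 5 of 16 alternatives in all. The nearest coding probe, of Qser1, differed by -0.23.

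The other named lncRNA probes were each called without support from all probes of their transcript. Chr2:112014068-112049540_F was higher by 0.78 ± 0.14 at 112044182, but its abutting probe at 112044122 was above background on all 3 sham arrays and on no LDIR array, at least 2.03-fold lower. Chr1:139847592-139848243_F was lower by -0.78 ± 0.14, with its other probes at -0.33 and -0.52. Chr19:46413742-46418617_F was lower by -1.20 ± 0.23 on a dim probe and at 0.20 on its brighter one. Chr6:40693617-40720167_F and chr1:59773381-59775888_F were lower by -0.81 and -0.71, and other probes of the former lay on either side of 0. The single transcript with calls in both directions on measured probes, chr2:60581618-60589907_F, had 1 probe at 1.04 and 2 at -0.75 and -0.64. With normexp correction the called measured probes of these 6 transcripts lay between -0.49 and 0.24, and none was called.

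**Figure D3:**
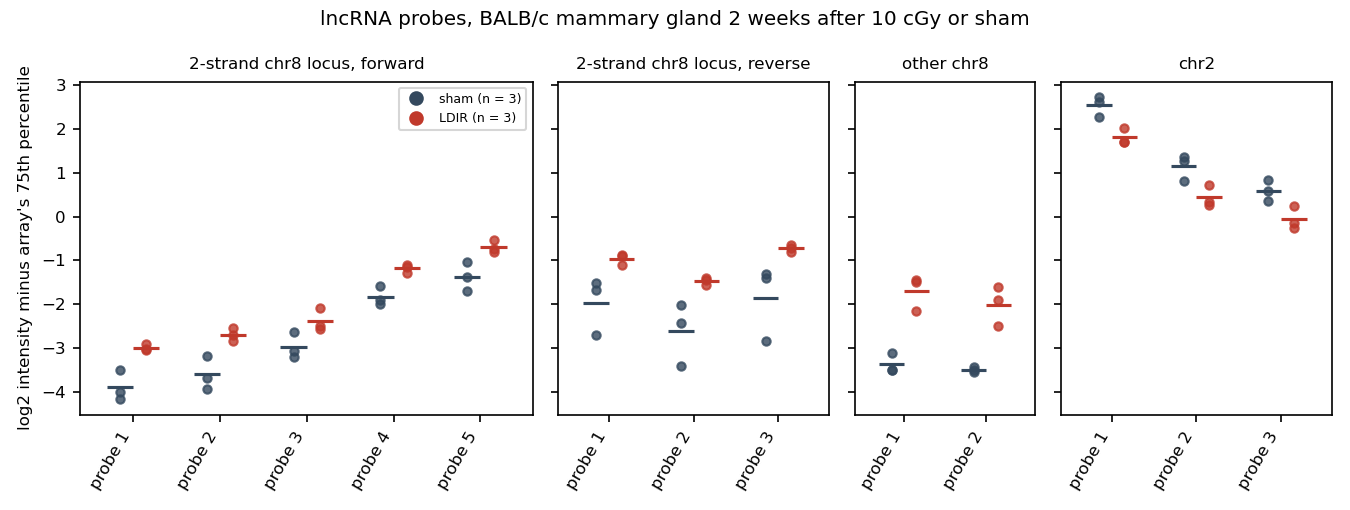
Level of the 13 probes of 4 lncRNA transcripts on each of the 3 sham and 3 LDIR arrays, as log2 intensity minus the array's 75th percentile; points are arrays, bars are group means, and probes run in genome order. LDIR lies higher in both strands of the chromosome 8 interval and in the other chromosome 8 transcript (changes of 0.59 to 1.67) and lower in the chromosome 2 transcript (-0.74 to -0.65).

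Pathway members were then read from 27 gene lists. Of their 565 genes on the array, 511 were measured, and 6 were called higher and 7 lower (2.30%, against 2.41% of all genes), with a median change of -0.05. Over all genes 46.7% were higher after LDIR and the median change was -0.02. The direction counts of lists below stand beside that share, come from the same 6 arrays and were not tested. The share called over the 27 lists together was near that of all genes. By list it ran from 0% (the p53 targets among others) to 17.6% of the 17 CXC and other chemokines (2 higher, 1 lower). These shares rest on few genes each, and no list was tested as a set.

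None of the genes of the DNA damage response was called. The 29 p53 targets had a median change of -0.13. Cdkn1a, the p21 inhibitor of cyclin-dependent kinases, was at -1.81, -1.20 and -1.71 after LDIR and -2.17, -1.14 and -2.40 after sham, a difference of 0.33 ± 0.36 (95% interval -0.55 to 1.21). Its groups overlapped, and the interval includes changes of up to about 1 log2 unit. Mdm2, the ubiquitin ligase of p53, differed by -0.14 ± 0.14, Ccng1 by 0.14 ± 0.23 and Bax, a pore-forming apoptosis protein, by 0.42 ± 0.24. Among 11 end joining genes, Prkdc itself differed by 0.25 ± 0.17, and the Ku subunits Xrcc5 and Xrcc6 by -0.04 and 0.01. The 26 genes of break sensing and homologous recombination had a median of -0.07, with the kinases Atm at 0.03 and Atr at -0.05. The 24 apoptosis regulators had a median of -0.07.

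Of the 31 cell cycle genes, 25 were lower after LDIR, with a median of -0.20, and 2 were called lower. Mki67, the proliferation marker Ki-67, was at -0.33, -0.38 and 0.32 after LDIR and 1.06, 0.21 and 0.53 after sham, a change of -0.73 ± 0.30 (limma adjusted p = 0.894). LDIR C lay within the sham range, and the call was lost without any one of LDIR A, LDIR B, sham A or sham C (-0.50 without sham A). Kif11, a mitotic kinesin, changed by -1.00 ± 0.38, was above background on only 1 LDIR array and lost its call without any one of LDIR B, LDIR C, sham A or sham B and with normexp correction (-0.26). Top2a and Ccnb1, of DNA replication and mitotic entry, differed by -0.21 and -0.43 and were not called.

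Inflammatory genes were called singly. Among 27 genes of the interferon gamma response, Ido1, which degrades tryptophan, was at 2.03, -0.73 and -2.69 after LDIR and -3.73, -2.96 and -2.85 after sham, a change of 2.72 ± 1.12 (limma adjusted p = 0.894). The LDIR arrays spread over more than 4 log2 units and LDIR C lay at the level of sham, and the Ido1 call was lost without any one array other than LDIR C, with a change of 1.47 without LDIR A. Cxcl10, an interferon-induced chemokine, changed by 0.60 ± 0.22, and the call was lost without any one of LDIR A, LDIR C, sham B or sham C (0.43 without sham C) and with normexp correction (0.29). The 30 type I interferon genes had no call, with 23 higher and a median of 0.09.

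Ccr3, the eotaxin receptor of eosinophils, was at -3.56, -3.60 and -3.58 after LDIR and -4.87, -4.17 and -4.23 after sham, a change of 0.84 ± 0.22 (limma adjusted p = 0.894). The Ccr3 groups did not overlap, while the summed eosinophil markers did, at 0.91 to 1.88 after LDIR and 1.32 to 2.18 after sham. Ccr3 came to 0.24 with normexp correction and was not called there. Cxcl17, a mucosal chemokine, was at -0.63, -1.38 and 0.24 after LDIR and 0.86, 0.69 and 0.09 after sham, a change of -1.14 ± 0.44 with LDIR C inside the sham range, and the call was lost without any one of LDIR A, LDIR B, sham A or sham B (-0.74 without LDIR B). Ccl22, Cxcl5 and the receptor Cxcr5 were also called, but were above background on no array and have no fold here. None of 31 cytokines and 9 MHC class II genes was called.

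In the hormone response list, 14 of 18 genes were lower and 2 were called lower, S100g and Esr1. Esr1, the estrogen receptor alpha, was at 0.34, 0.57 and 0.87 after LDIR and 1.47, 1.25 and 1.10 after sham on its brightest probe, a change of -0.68 ± 0.19 (limma adjusted p = 0.894). Its groups did not overlap, but the other 3 Esr1 probes gave 0.15, -0.41 and -0.18, and without LDIR A or sham A the change was -0.56 or -0.58, under the 1.5-fold limit. Pgr, the progesterone receptor, differed by -0.22 ± 0.56 and Areg, amphiregulin, by -0.19 ± 0.58, both within their error. Wnt4, a progesterone-induced ligand, differed by -0.68 ± 0.55. Tnfsf11, the ligand RANKL, was above background on sham A alone. Of 12 milk protein genes none was called, and Csn3 and Lalba differed by -0.30 and -0.14.

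Of 30 WNT ligands and targets, 24 were lower, with a median of -0.26, and Wnt10a was called at -0.64 ± 0.26, a call lost without any one of LDIR B, LDIR C, sham B or sham C (-0.39 without sham B) and with normexp correction (-0.34). The 17 hedgehog genes, the 15 EGF and ERBB genes and the 19 TGF-beta targets had no call. In the stroma, Postn, the matricellular protein periostin, was at 4.92, 4.79 and 4.81 after LDIR and 5.24, 5.48 and 5.61 after sham, a change of -0.60 ± 0.16 (limma adjusted p = 0.894). Postn separated the groups but sat at the 1.5-fold limit, and its call was lost without any one of LDIR B, sham B or sham C (-0.52 without sham C). Of 20 collagens, 16 were lower with a median of -0.28 and none called, Col1a1 at -0.33 ± 0.25 and Col3a1 at -0.51 ± 0.21, and among the sham arrays both were lowest on sham A.

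Metabolic lists had no call. Fatty acid synthesis genes were higher in 12 of 16, with a median of 0.28. Fasn, fatty acid synthase, differed by 0.46 ± 0.42, Acaca, acetyl-CoA carboxylase, by 0.65 ± 0.48 and Elovl6, a fatty acid elongase, by 1.05 ± 0.75. The summed list level was 991, 1617 and 2553 in LDIR A, B and C and 962, 1114 and 1804 in sham A, B and C, so the groups overlapped widely. Without LDIR A and sham C together, an exclusion chosen after the data were seen, 7 of the 16 were called higher. LDIR A held the lowest LDIR sum of this list and sham C the highest sham sum, so leaving them out widened the gap. Calls over all 39430 coding probes rose from 1036 to 2223 in that refit, and the 7 calls are no separate evidence. Respiratory chain genes were higher in 20 of 25 with a median of 0.09. Among antioxidant enzymes, Hmox1, heme oxygenase, differed by 1.18 ± 0.79. Brown fat markers, a cell type list apart from the 27, went both ways, with Dio2, the deiodinase, called at -1.18 ± 0.46 and Prdm16, a brown fat regulator, at -0.70 ± 0.19, while Ucp1, the uncoupling protein, differed by 1.08 ± 1.07. Without LDIR A neither call held, at -0.89 for Dio2 and -0.57 for Prdm16, and Dio2 was also not called without LDIR C, sham A (-0.78) or sham B. With normexp correction Prdm16 came to -0.51 and was not called.

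Clock, glucocorticoid and immediate early genes had no call among 17, 12 and 24. Of the 22 well-known lncRNAs on the array none was called either. Malat1 and Neat1, nuclear lncRNAs of high level, differed by -0.11 ± 0.26 and 0.11 ± 0.19, and Meg3, an imprinted lncRNA, by -0.58 ± 0.23, just under the 1.5-fold limit. The lncRNA interval chr19:5771425-5848475_F, which spans the Malat1 and Neat1 probes, had 2 probes called higher, at 0.72 ± 0.25 and 0.63 ± 0.23. Its other probes lay between -0.03 and 0.49 and were not called, and each of the 2 calls was lost in 7 of 16 alternatives.

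**Figure D4:**
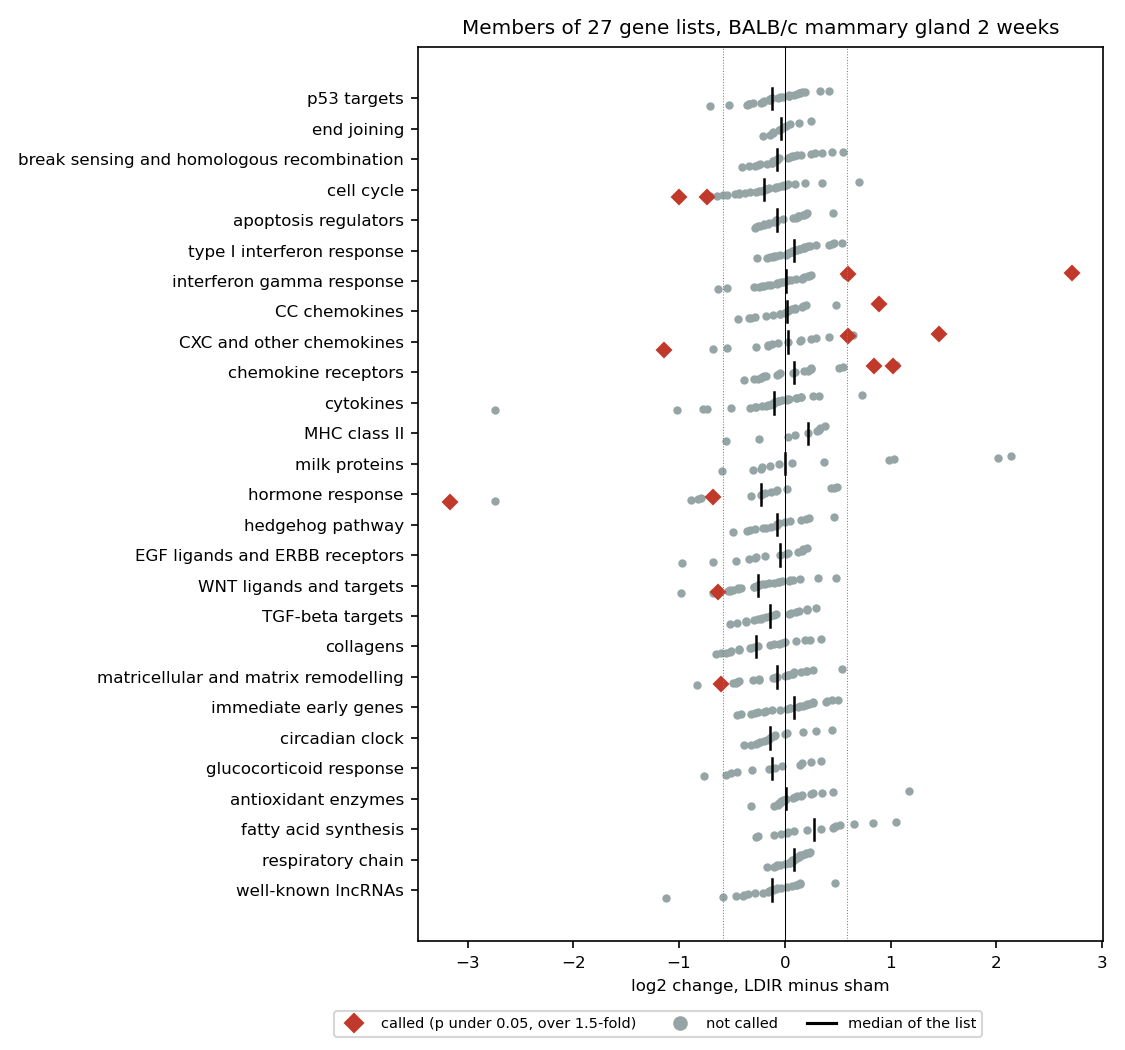
Change of each member of 27 gene lists (log2, LDIR minus sham; 1 point per gene), with called members as red diamonds, a bar at each list's median and dotted lines at 1.5-fold. List medians lie between -0.28 and 0.28, and 13 genes are called, 6 higher and 7 lower.

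The study also traced 2 regulators at this time, GLI2, the effector of hedgehog signalling, and SATB1, a chromatin organizer, through genes that it picked on these samples, so their counts are no independent evidence. Of 5 GLI2 genes, 4 were called, but Ccl22, Cxcl5 and Krt1 were above background on none of the 6 arrays and Foxa2 on 1. Smo, the hedgehog receptor component and the measured member, differed by -0.21 ± 0.14, and Gli2 itself by 0.00 ± 0.39. Of 7 SATB1 genes, 5 were called. Lrrn3, a leucine-rich repeat protein, was the called member measured in both groups, at -0.60 ± 0.21, a call lost without any one of LDIR A, LDIR B, sham B or sham C, while Il18rap, an interleukin 18 receptor subunit, was at least 1.41-fold higher, and Tnfrsf8, CD30, at least 1.14-fold higher, each above background on 2 LDIR arrays and no sham array. Hsf5 was above background on 1 sham array alone and has no fold here, and Fam129a was above background on no array. With normexp correction none of these 5 was called. Across the alternatives the smallest changes of Il18rap and Tnfrsf8 were 0.14 and 0.10 on the log2 scale, under their bounds, which hold for the main scaling alone.

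Large gene families were called at rates around that of all genes. Of 1103 olfactory receptor genes, 26 were called (2.36%), but only 258 were measured and 2 of these were called. Of 378 Zfp genes 5 were called (1.32%), of 378 Slc genes 12 (3.17%) and of 263 Vmn genes, vomeronasal receptors, 10 (3.80%), of which 66 were measured with 1 call. Receptor families that the gland barely expresses thus gave calls mainly on probes near background.

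The 2-week changes were then set beside those of separate BALB/c glands at 4 and 8 weeks, which had their own sham arrays and lay partly on other slides. No probe differed between the 2-week and 4-week or between the 2-week and 8-week LDIR effect after adjustment in limma (1056 and 2039 probes at an unadjusted p under 0.05). Of the 438 measured coding calls, 18 were also called in the same direction at 4 weeks and 7 in the other. Of all coding probes, measured or not, 2.99% were called higher and 1.42% lower at that time. At 4 weeks 286 of 437 had the sign of 2 weeks, while 49.9% of all measured coding probes were higher. At 8 weeks, 3 were called in the same direction and 3 in the other, and 166 of the 438 had the sign of 2 weeks. Of all coding probes, measured or not, 0.19% were called higher and 1.31% lower at 8 weeks. Of the 235 lncRNA calls, 13 and 2 were called in the same and in the other direction at 4 weeks, and 2 and 2 at 8 weeks. Of all lncRNA probes, measured or not, 4.28% were called higher and 1.42% lower at 4 weeks and 0.11% and 2.42% at 8 weeks. The sign of 2 weeks was kept by 156 of the 235 at 4 weeks and by 66 at 8 weeks. At 4 weeks 67.7% of all measured lncRNA probes were higher, and the share at 8 weeks was not worked out for either class.

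S100g was called at both times, with changes of -3.15 and -4.02 on its probes at 4 weeks and 0.17 and 0.28 at 8 weeks. Ptx3 was also lower at 4 weeks, by -0.98 ± 0.35, and at -0.27 ± 0.30 at 8 weeks. Of the 16 named coding RNAs, Ptx3 was the one called at 4 weeks. Marchf1 and Slc17a5 came to 0.08 each, Lhx8 and Mgp to -0.34 and -0.26, Khdrbs2 to 0.53, Hoxa10 to -0.53 and Spink2 to 0.58, none called. Among the list and marker genes, Ido1 differed by 3.31 ± 1.81, Cxcl17 by -0.92 ± 0.49, Prdm16 by -0.70 ± 0.59 and Ccr3 by 0.62 ± 0.30 at 4 weeks, in the direction of 2 weeks but without passing the threshold. All 8 probes of the chromosome 8 pair printed above were lower at 4 weeks and at 8 weeks, with 1 passing an unadjusted p of 0.05 (-0.53 ± 0.21 at 4 weeks for the probe at 26348475, under 1.5-fold). The chromosome 2 transcript was at -0.43, -0.49 and -0.42 at 4 weeks, in the direction of 2 weeks but under 1.5-fold, and at 0.08, 0.09 and 0.06 at 8 weeks.

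**Figure D5:**
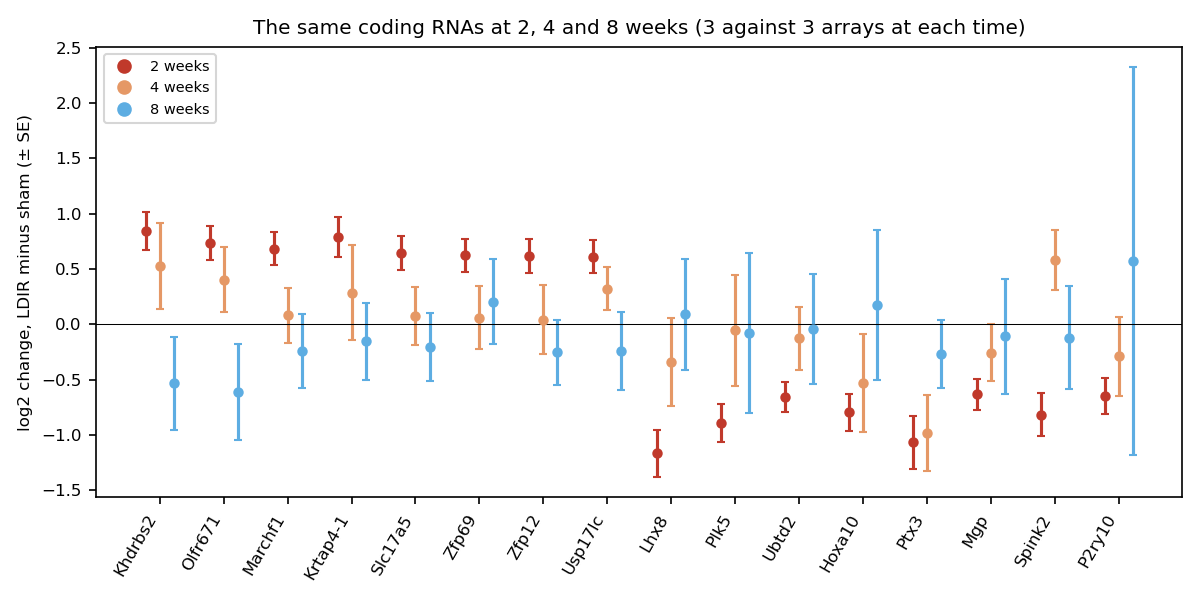
Change of the 16 named coding RNAs (log2, LDIR minus sham, ± SE) at 2, 4 and 8 weeks, each from 3 LDIR and 3 sham arrays of that time. The 2-week values were selected for their size; at 4 weeks Ptx3 stays at -0.98 and most others lie closer to 0.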

How the data were processed

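The study profiled total RNA of whole mammary glands on Agilent SurePrint G3 mouse 60-base arrays (Cy3, 1 colour). The deposited scanner files give each spot's background-corrected intensity, which the authors scaled to the array's 75th percentile in GeneSpring to make the deposited log2 values. Here the scanner intensity (gProcessedSignal) was used: control and outlier spots were left out, log2 was taken, the 75th percentile of each array was subtracted and spots of a probe were averaged. Annotation and mm9 positions came from the array files, with symbols updated through RefSeq for 27235 coding probes. The 3 LDIR and 3 sham arrays were compared with limma 3.58.1 (lmFit, eBayes; R 4.3.3) across all 55681 probes, without pairing, with Benjamini-Hochberg adjustment beside the study's threshold. The code was tested on simulated data. Named coding RNAs were the 8 per direction, and named lncRNA probes the 4 per direction, with the smallest p among called, measured probes (above background on 4 of 6 arrays) with non-overlapping groups. The comparison, the gene lists and the rules were chosen with earlier results of these data known. Alternatives were normexp correction (offset 50), outlier spots retained, quantile scaling, the log2 values as deposited, stricter background filters, the methods' t-test, the replicate letter as a block, all 18 BALB/c arrays in 1 fit and each array left out, and, chosen after seeing the data, LDIR A and sham C left out together. Array depth has no count, so the number of arrays limits the precision: the median SE of measured probes was 0.20 on the log2 scale, and a change of 1.39-fold was needed for p under 0.05.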

Additional observations from a re-analysis of the deposited data

How the results depend on the processing

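The count of probes with an adjusted p under 0.05 was 0 under every alternative (smallest adjusted p 0.0714, with quantile normalization). Calls numbered 1036 coding and 707 lncRNA probes, and 252 and 21 with normexp correction, 419 and 171 among probes above background on all 6 arrays, 624 and 334 among probes above background on at least 6 of the 12 later BALB/c arrays, 567 and 376 by the methods' t-test, 516 and 280 in the fit of all 18 BALB/c arrays, and 2223 and 1272 without LDIR A and sham C, the arrays high in skeletal muscle markers. Measured calls (438 and 235) came to 248 and 20, 244 and 135, 288 and 107 and 1190 and 512 with normexp, the t-test, the 18 arrays and without those arrays. Leaving out each array in turn gave 1103 to 1626 coding and 733 to 917 lncRNA calls, and 419 to 907 and 231 to 373 measured ones, the highest each time without sham C. The 13 called list genes became 6 by the t-test, 3 with 18 arrays, 33 without LDIR A and sham C, and 12 to 27 with each array left out (27 without LDIR C). The cause of these shifts was not tested. Of 382 alternative values of the 24 named probes, 345 kept the call, 37 lost it and none reversed. Leaving out arrays could not reverse probes chosen for non-overlapping groups, and the t-test and the 18-array fit use the same group means. These values are refits of the same arrays and not separate checks. No label says what the replicate letters share: deviations of same-letter LDIR and sham arrays correlated at 0.11, 0.39 and 0.06 (A, B and C) over measured probes and at 0.14, 0.44 and 0.10 over probes above background on all 6 arrays, so the data do not settle whether they are pairs. LDIR C correlated best with sham A (0.11 and 0.10), and with the letter as a replicate block the calls numbered 1304 and 840, measured ones 563 and 275, and list genes 18, with a smallest adjusted p of 0.728.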

Other observations

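Other RNAs, singled out after their values were seen because they were called in the same direction at 2 and at 4 weeks, included genes of B cells. Pou2af1, a B cell transcriptional coactivator, was higher by 0.61 at 2 weeks and 0.77 at 4 weeks (limma unadjusted p = 0.0466 and 0.0187). Fcmr, the IgM receptor, was higher by 1.29 and 0.69 (limma unadjusted p = 0.015 and 0.0269). Another B cell gene, Ms4a1, CD20, was not called at 4 weeks (1.16 ± 0.53). At 2 weeks Ms4a1 was above background on all 3 LDIR and on no sham array, at least 2.20-fold higher in the main scaling. That call was lost without sham A or sham C. It was also lost with normexp correction, where the change was 0.20 on the log2 scale, under that bound. The summed B and plasma cell markers overlapped, at 63.2 to 74.2 after LDIR and 66.2 to 75.4 after sham, with 8 of 12 higher and 1 called.

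Tmprss11a, a serine protease of squamous epithelium, was higher by 3.72 at 2 weeks and 2.52 at 4 weeks (limma unadjusted p = 0.0197 and 0.0493). Tbx1, a T-box transcription factor, was lower by -1.04 and -1.38 (limma unadjusted p = 0.0367 and 0.0241). Ifi203, an interferon-inducible gene, was higher by 0.63 and 0.82 (limma unadjusted p = 0.0247 and 0.0231). At 8 weeks these came to -0.74, 0.29 and 0.30, none called.

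Measured lncRNA probes called higher had a median level of -4.56, against -3.22 for measured lncRNA probes that were not called, with a median GC content of 45% in both.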
